A study of Rattus norvegicus with 9 samples.

Results

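Small RNA from the hippocampus of Sprague-Dawley rats was sequenced, and this account follows 6 mature miRNAs of the 633 listed, those with the target names rno-miR-1298, rno-miR-448-3p, rno-miR-448-5p, rno-miR-764-3p, rno-miR-764-5p and rno-miR-3552. Their hairpins lie inside Htr2c, the gene of the serotonin 2C receptor. The 6 were picked by name, but they were selected on earlier results of the same counts, in which several of them lay below VEH after drug treatment. Their differences from VEH are therefore given as descriptions, with no test. All 6 passed the filter on low counts that left 469 miRNAs for testing.

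The VEH group was given sterile saline throughout. The MK-801 group was injected with MK-801, which blocks NMDA-type glutamate receptors, at 0.2 mg/kg once a day for 14 days, followed by 7 days of saline. Rats of the MK-801+CLO group had that same MK-801 course, followed by 7 days of the atypical antipsychotic clozapine (CLO) at 10 mg/kg. All injections were intraperitoneal, so the VEH animals share the handling but neither drug. The labels tag every sample as postnatal day 21 while the protocol has the rats enter treatment at 5 weeks of age, so the age at treatment is uncertain. Each group held 10 rats and has 3 libraries. Whether a library is 1 rat or a pool is not stated, so the spread between libraries may be technical.

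Htr2c encodes a Gq-coupled receptor that is expressed in neurons and, at very high level, in the epithelium of the choroid plexus, and clozapine binds it as an antagonist. Intronic miRNAs are commonly cut from the transcript of their host gene. A hairpin is trimmed to a duplex of a 5p and a 3p arm, of which usually one is kept in the silencing complex and the other is mostly degraded. The seed, bases 2 to 8 of the mature miRNA, is the main determinant of which mRNAs are bound.

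In the RefSeq annotation of assembly GRCr8, 5 hairpins lie within the bounds of Htr2c and on its strand, in the order Mir3552, Mir764, Mir1912, Mir1298 and Mir448 from the start of the host gene. The submitters' processing notes name another assembly, Rnor_6.0, so no positions are given. The mature sequences are shown because they set the targets and identify each row, as deposited (with T for U) and with the seed in capitals.
miR-3552: aGGCTGCAggcccacttccct
miR-764-5p: gGTGCTCAcatgtcctcctcca
miR-764-3p: gAGGAGGCcatagtggcaactgt
miR-1298: tTCATTCGgctgtccagatgta
miR-448-5p: aACATCCTgcatagtgctgcca
miR-448-3p: tTGCATATgtaggatgtccca
miR-1912-3p: cACAGAACatgcagtgaga
The last is not among the 6 but comes from the same host gene. The deposited sequences of all except miR-764-5p equal the RefSeq mature sequences. That of miR-764-5p lies at bases 27 to 48 of the RefSeq Mir764 hairpin.

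No 2 of these miRNAs share a seed, so the group is held together by genome position and not by a common target code. Among the 633 listed miRNAs, no other has the bases 2 to 8 of a member, and 1, miR-153-3p, has the bases 2 to 7 of miR-448-3p.
miR-153-3p: tTGCATAGtcacaaaagtgatc
The 2 hairpins with both arms in the table are shown from RefSeq (GRCr8), with the deposited mature arms in capitals, since the arms are compared further on.
Mir448: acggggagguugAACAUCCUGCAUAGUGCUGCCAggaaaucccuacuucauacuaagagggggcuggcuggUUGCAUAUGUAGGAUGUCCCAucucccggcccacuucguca
Mir764: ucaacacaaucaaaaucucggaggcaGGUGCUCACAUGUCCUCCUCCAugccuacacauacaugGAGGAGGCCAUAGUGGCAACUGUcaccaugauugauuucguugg

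Libraries held 10665718 to 18284905 counts. Levels are in CPM, a miRNA's count scaled to the total count of its library, with no length term. Of the neuronal markers 8 of 8 were detected, with a summed level of 123698 to 152777 CPM. No list checked marks the hippocampus itself apart from other forebrain tissue. The hindbrain and spinal cord list (5 in the table, 1 of them abundant enough to be tested) summed to 36.4 to 449 CPM over VEH libraries, 53.8 to 70.9 CPM over MK-801 libraries and 17.3 to 96.2 CPM over MK-801+CLO libraries, with its highest value in VEH replicate 2. The list of 4 choroid plexus miRNAs (3 in the table: miR-204-5p, miR-204-3p and miR-211-5p, none at 0) summed to 1919 to 8598 CPM. VEH replicate 3 stood apart in the levels of the members, so values that rest on it are given with and without it.

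MiR-1298 was by far the most abundant of the 6, with a mean of 427 CPM over the 9 libraries and rank 104 of 633. It was followed by miR-764-3p (35.6 CPM), miR-448-3p (22.6 CPM), miR-3552 (9.39 CPM), miR-764-5p (4.77 CPM) and miR-448-5p (2.43 CPM). Each member lay above the next in all 9 libraries, except that miR-764-3p exceeded miR-448-3p in 7 of 9. The order concerns counted reads, and differences in ligation and amplification between miRNAs are not corrected in it. In each hairpin with both arms, the 3p arm was the more abundant.

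MiR-1298, cut from the fourth hairpin, stood at 482, 272 and 1884 CPM in VEH replicates 1, 2 and 3. It stood at 170, 343 and 198 CPM in the MK-801 replicates. In MK-801+CLO it was 142, 195 and 156 CPM. VEH replicate 3 held 34445 reads of it, against 1811 to 8052 in the other 8 libraries. Every MK-801+CLO library lay below every VEH library, while MK-801 replicate 2 lay above VEH replicate 2. The means were 879 ± 876 CPM for VEH, 237 ± 93.2 CPM for MK-801 and 164 ± 27.7 CPM in MK-801+CLO (SD, n = 3), and the VEH mean was 377 CPM without replicate 3.

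MiR-448-3p, the main arm of the fifth hairpin, followed miR-1298 closely. Its levels were 25.5, 17.8 and 83.1 CPM in the VEH libraries, 11.8, 24.4 and 11.2 CPM in the MK-801 libraries, and 12.2, 11.3 and 6.27 CPM in the MK-801+CLO libraries. Again VEH replicate 3 was highest, all MK-801+CLO libraries lay below all VEH libraries, and MK-801 overlapped with both. The means were 42.1 ± 35.7, 15.8 ± 7.46 and 9.93 ± 3.19 CPM (SD, n = 3), and 21.6 CPM for VEH without replicate 3.

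MiR-448-5p, the minor arm of that hairpin, was rare. It had 27, 45 and 116 counts in VEH, or 1.62, 3.82 and 6.34 CPM. MK-801 had 24, 59 and 25 counts, or 1.61, 3.46 and 1.64 CPM. The MK-801+CLO libraries had 16, 10 and 16 counts (1.26, 0.938 and 1.18 CPM) and lay below all 6 others. The gap is within counting error for single libraries: the 95% Wilson interval was 0.772 to 2.04 CPM in MK-801+CLO replicate 1 and 1.11 to 2.35 CPM in VEH replicate 1. Such intervals cover counting error only.

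MiR-764-3p, the main arm of the second hairpin, showed another order of libraries. Its levels were 23.7, 57.1 and 63.2 CPM in the VEH libraries, 31.3, 57.6 and 20.4 CPM in the MK-801 libraries, and 24.5, 16.7 and 26.2 CPM in the MK-801+CLO libraries. The high libraries were VEH replicates 2 and 3 and MK-801 replicate 2, and VEH replicate 1 lay among the MK-801+CLO values. The groups overlapped, at means of 48.0 ± 21.2, 36.4 ± 19.1 and 22.5 ± 5.06 CPM (SD, n = 3). Its partner miR-764-5p stood at 4.73, 4.76 and 10.7 CPM in the VEH libraries, 4.84, 7.40 and 2.56 CPM in the MK-801 libraries, and 3.37, 1.88 and 2.66 CPM in the MK-801+CLO libraries. For this arm the MK-801+CLO libraries lay below the VEH libraries.

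MiR-3552, from the hairpin nearest the start of the host gene, had the same 3 libraries at the top as miR-764-3p, in another order. Its levels were 5.39, 16.5 and 23.6 CPM in the VEH libraries, 6.25, 12.9 and 5.05 CPM in the MK-801 libraries, and 5.57, 5.72 and 3.47 CPM in the MK-801+CLO libraries. VEH replicates 2 and 3 and MK-801 replicate 2 were high, the other 6 libraries lay close together, and the groups overlapped. MiR-1912-3p, the rarest product of the host gene in the table, was too low to be tested, with 5, 6 and 32 counts in VEH, 4, 7 and 3 in MK-801, and 1, 2 and 3 in MK-801+CLO. VEH replicate 3, at 1.75 CPM (95% Wilson interval 1.24 to 2.47), was its highest library too.

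**Figure D1:**
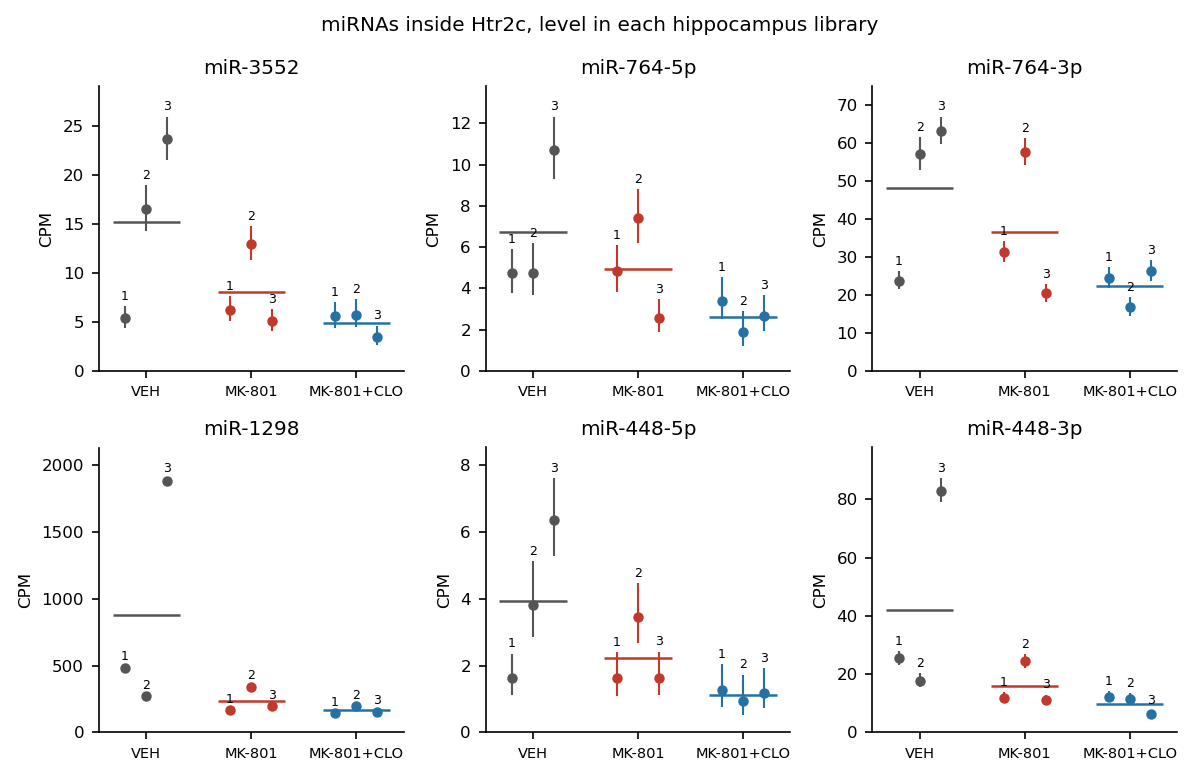
Level of the 6 miRNAs in CPM (linear axes from 0) in each library, in host gene order from top left to bottom right except that the 5p arm precedes the 3p arm. Each point is 1 library and carries its replicate number, vertical lines are 95% Wilson intervals and horizontal lines are group means (n = 3). VEH replicate 3 is the highest library in all 6 panels, and VEH replicate 2 and MK-801 replicate 2 are also high for miR-3552, miR-764-3p and miR-448-5p.

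VEH replicate 3 was raised unequally along the host gene. Against the median of the other 8 libraries it was 9.58 times as high for miR-1298, followed by miR-448-3p with 6.93 times. The ratio was 4.19 for miR-3552, 3.93 for miR-448-5p, 2.64 for miR-764-5p and 2.49 for miR-764-3p. The median of that ratio over the 469 tested miRNAs was 1.01, and 16 of them reached 2. All 6 members were among the 10 highest, where the other 4 were miR-489-3p, miR-204-5p, miR-26a-3p and miR-483-3p, names taken after their values were seen. The members were selected on results in which several lay below VEH, the group of this library. Nothing is therefore read from their rank. The biological coefficient of variation that edgeR assigned to the members was 34.0% to 48.1%, against a common value of 17.2%.

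The 6 members summed to 543, 372 and 2071 CPM in the VEH replicates, 225, 449 and 239 CPM in those of MK-801 and 189, 232 and 196 CPM in those of MK-801+CLO. MiR-1298 made up 73.1% to 91.0% of the sum. MiR-764-3p held 3.05% and 4.37% of it in VEH replicates 3 and 1 and 7.19% to 15.4% elsewhere.

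Ratios between members within a library show that they did not move as 1 unit. MiR-1298 outnumbered miR-764-3p 29.8 times in VEH replicate 3 (95% Wilson interval 28.1 to 31.6) and 20.3 times in VEH replicate 1 (18.4 to 22.5). In the other 7 libraries that ratio ran from 4.76 to 11.7. In VEH replicate 2 it was 4.76 (4.38 to 5.17), so libraries of the same group differed beyond counting error. The ratio of miR-1298 to miR-448-3p was steadier, from 11.7 to 24.9.

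The arms of a hairpin also parted. MiR-448-3p outnumbered miR-448-5p 15.7 times in VEH replicate 1 (95% Wilson interval 10.7 to 23.2), 13.1 times in replicate 3 (10.8 to 15.8) and 4.64 times in replicate 2 (3.37 to 6.40). For the arms of Mir764 the order of these libraries was turned, with 5.01 in VEH replicate 1 (3.94 to 6.38), 5.89 in replicate 3 (5.07 to 6.86) and 12.0 in replicate 2 (9.14 to 15.7). The intervals of replicates 1 and 2 do not overlap for either hairpin. In the 3 MK-801 libraries the Mir448 ratio was 7.07 ± 0.248 (SD, n = 3), and the Mir764 ratio was 7.41 ± 0.826. With 24 to 59 counts of miR-448-5p there, the Wilson intervals of the Mir448 ratio spanned 4.51 to 11.2. The small SD thus does not show that this ratio was constant. The group ranges of both ratios overlapped.

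Between the hairpins at the ends of the host gene, miR-448-5p stood at 0.164 to 0.340 of miR-3552 in the 9 libraries, a 2.08-fold range beside 2.13-fold for miR-1298 to miR-448-3p. All 9 Wilson intervals overlapped, but they are wide, with 10 to 116 counts of miR-448-5p, and do not show that the ratio was constant. This pair was singled out after its values were seen.

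**Figure D2:**
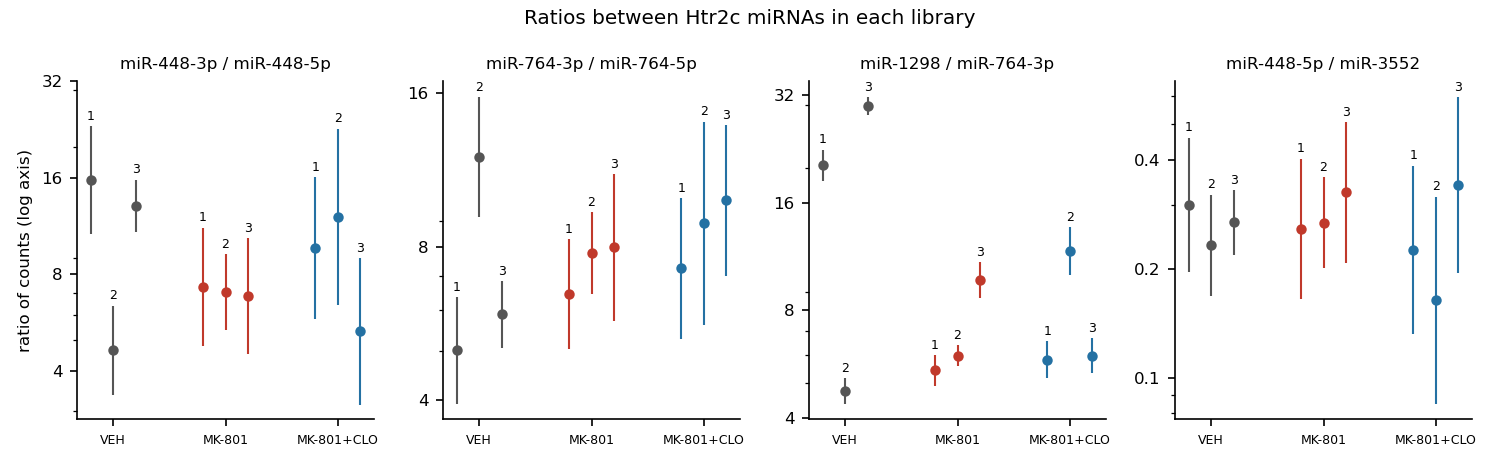
Ratio of counts between 2 members in each library (log axes), for both arms of Mir448, both arms of Mir764, miR-1298 to miR-764-3p and miR-448-5p to miR-3552. Each point is 1 library and carries its replicate number, and lines are 95% Wilson intervals. VEH replicate 2 lies lowest for the arms of Mir448 and for miR-1298 to miR-764-3p and highest for the arms of Mir764, and the 9 intervals of miR-448-5p to miR-3552 are wide and overlap.

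Likeness across the 9 libraries, given as Pearson r and Spearman rho of log2(CPM + 0.5) with no test, was highest for different partners in different members. The pairs share their libraries and depth. The r of miR-1298 with miR-448-3p was 0.96 (rho 0.77), and 0.88 without VEH replicate 3. With miR-764-3p the r was 0.60 (rho 0.40), and 0.36 without that library. VEH replicates 3 and 1 were the libraries farthest from the median of miR-1298. Without them these pairs lay closer together, with an r of 0.84 for miR-448-3p and 0.73 for miR-764-3p. The r of miR-1298 was then 0.84 with miR-3552 and 0.85 with miR-448-5p. The r with miR-764-3p thus fell when VEH replicate 3 alone was left out, and rose when replicate 1 was left out as well. For miR-764-5p the r with miR-1298 was 0.79 with all 9 libraries, 0.58 without VEH replicate 3 and 0.63 without replicates 3 and 1. By r, miR-448-5p was most like miR-3552 (r 0.95, rho 0.65) and miR-764-3p (r 0.93, rho 0.70), with r of 0.91 and 0.93 without VEH replicate 3. By rho the order differed: among the members it was highest with miR-1298 (0.77) and lowest with miR-3552. The arms of Mir448 had an r of 0.84 with each other and those of Mir764 an r of 0.87.

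Of 330 other miRNAs with a mean of at least 10 CPM, the 5 most like miR-1298 were miR-204-5p (r 0.97, rho 0.97), miR-320-3p (r 0.87, rho 0.98), miR-540-3p (r 0.84, rho 0.58), miR-667-3p (r 0.82, rho 0.85) and miR-323-3p (r 0.81, rho 0.82). Without VEH replicate 3 these r were 0.87, 0.97, 0.49, 0.72 and 0.59, and after the removal of VEH replicates 3 and 1, the 2 libraries farthest from the median, 0.70, 0.95, 0.83, 0.50 and 0.68. Only miR-320-3p stayed above 0.9 in both cases among these 5. With deviations from the group means in place of levels, the r of miR-204-5p was 0.94 and that of miR-320-3p 0.70. MiR-204-5p, a marker of choroid plexus epithelium, stood at 3798, 2613 and 8583 CPM in the VEH libraries, 2537, 2634 and 2618 CPM in the MK-801 libraries, and 1994, 2552 and 1900 CPM in the MK-801+CLO libraries. It was high in the same 2 VEH libraries as miR-1298.

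The other choroid plexus markers in the table went different ways. MiR-204-3p, from the same hairpin as miR-204-5p, was also highest in VEH replicate 3, at 4.65 CPM, with 2.34 and 1.53 CPM in VEH replicates 1 and 2 and 1.70 to 2.42 CPM in the other 6 libraries. MiR-211-5p was not raised in that library. It was 10.4 CPM in VEH replicate 3 and 12.3 and 12.1 CPM in the other VEH libraries, and 13.2 to 21.0 CPM in MK-801+CLO. The choroid plexus list summed to 2627 to 8598 CPM over VEH libraries, 2549 to 2647 CPM over MK-801 libraries and 1919 to 2568 CPM over MK-801+CLO libraries, nearly all of it miR-204-5p. In these bulk samples fewer cells of a type and less RNA per cell cannot be told apart. The summed list had an r of 0.97 with miR-1298, 0.93 with miR-448-3p, 0.68 with miR-3552 and 0.48 with miR-764-3p, and of 0.87, 0.77, 0.24 and 0.03 without VEH replicate 3.

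Ciliated cell miRNAs (6 of 6 in the table, none at 0 in all libraries), which mark the ependyma lining the ventricles, summed to 1104 to 1898 CPM over VEH libraries, 942 to 1534 CPM over MK-801 libraries and 497 to 1115 CPM over MK-801+CLO libraries. Nearly all of that was miR-34c-5p, at 467 to 1759 CPM, while miR-449c-5p was above 0 only in VEH replicate 3. The ciliated sum had an r of 0.80 with miR-1298 and 0.84 with miR-448-3p, and of 0.86 with each without VEH replicate 3. The r was lower with miR-3552 (0.70), miR-448-5p (0.67), miR-764-5p (0.67) and miR-764-3p (0.49). Without that library these were 0.56, 0.51, 0.52 and 0.31. Epithelial miRNAs of the miR-200 family (5 of 5 in the table) were low, at 2.36 to 8.79 CPM in sum. The neuronal sum ran from 131831 to 137793 CPM over VEH libraries, 130412 to 152777 CPM over MK-801 libraries and 123698 to 143284 CPM over MK-801+CLO libraries, with r between -0.29 and 0.08 to the 6 members. Most of that sum was miR-9a-5p, at 73353 to 91869 CPM, so these r say little of the rarer markers in the list. The oligodendrocyte list summed to 3686 to 6184 CPM, the blood list to 2710 to 3563 CPM and the vessel list to 21837 to 30246 CPM over all libraries, with the highest vessel sums in MK-801+CLO. The vessel sum had an r of -0.58 to -0.36 with the 6 members, and of -0.68 to -0.36 without VEH replicate 3. For the hindbrain and spinal cord sum the r was -0.15 to 0.31, and 0.24 to 0.60 without that library, highest for miR-448-5p (0.60) and miR-764-3p (0.57). No tested miRNA of these lists passed the edgeR test in any comparison, where 0 of all 469 (0%) passed. MiRNAs of the lists below the filter were not tested. The part of these cell types in the differences between groups was not tested.

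**Figure D3:**
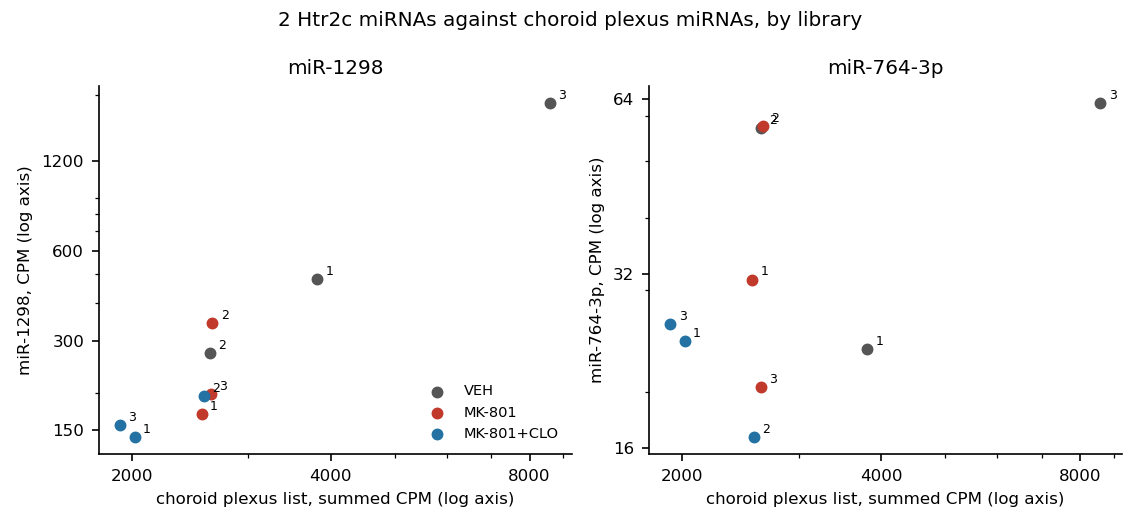
Level of miR-1298 (left) and miR-764-3p (right) against the summed level of 3 choroid plexus miRNAs, in CPM on log axes, 1 point per library with its replicate number. MiR-1298 is highest in VEH replicates 3 and 1, where the choroid plexus sum is also highest, while miR-764-3p is low in VEH replicate 1 and high in VEH replicate 2 and MK-801 replicate 2, whose sums are close to those of most other libraries.

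MK-801 against VEH compares levels after repeated NMDA receptor blockade with those after saline alone. The fitted log2 fold changes were -1.89 ± 0.59 for miR-1298 (SE, 3 libraries a group), followed by miR-448-3p at -1.41 ± 0.53. They were -0.90 ± 0.48 for miR-3552, -0.80 ± 0.45 for miR-448-5p, -0.45 ± 0.40 for miR-764-5p and -0.39 ± 0.39 for miR-764-3p. For none of the 6 did all MK-801 libraries lie below all VEH libraries, against 7.89% of the 469 tested miRNAs. Without VEH replicate 3 it was again 0 of 6, against 10.4%. The fold changes were then -0.66 ± 0.31 for miR-1298, -0.45 ± 0.35 for miR-448-3p, -0.40 ± 0.47 for miR-3552, -0.22 ± 0.43 for miR-448-5p, -0.13 ± 0.43 for miR-764-3p and 0.07 ± 0.37 for miR-764-5p. The members' median was -0.85 with all libraries, beside -0.02 for all tested miRNAs. The members were selected with earlier results of this contrast known, so nothing is read from that gap. Without MK-801 replicate 2, the highest MK-801 library for each member, the estimates were -0.83 for both miR-764-3p and miR-764-5p, -1.22 for miR-448-5p, -1.36 for miR-3552, -1.82 for miR-448-3p and -2.20 for miR-1298. In edgeR 0 of 469 miRNAs (0%) passed an adjusted p of 0.05, 24 had an unadjusted p under 0.05, DESeq2 called 1 and limma voom 0.

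The effect of clozapine given after MK-801 is read from MK-801+CLO against MK-801, a contrast in which the members were tested. Its libraries also entered the comparisons with VEH on which the members were selected. The estimates are therefore not independent of that selection. No member passed the test. The log2 fold changes were -0.94 ± 0.52 for miR-448-5p, -0.85 ± 0.44 for miR-764-5p, -0.67 ± 0.51 for miR-3552, -0.64 ± 0.40 for miR-764-3p, -0.63 ± 0.55 for miR-448-3p and -0.47 ± 0.58 for miR-1298. All 6 estimates were negative, with a median of -0.66, beside negative estimates for 51.2% of all tested miRNAs, but each member's edgeR adjusted p was at least 0.623. Given the selection, nothing is read from the shared sign. All MK-801+CLO libraries lay below all MK-801 libraries for 1 member, miR-448-5p, against 6.82% of the tested miRNAs. The high MK-801 values were those of replicate 2. Without it the estimates ranged from -0.52 for miR-448-5p to -0.16 for miR-1298, each nearer to 0 than with all libraries. In edgeR 0 of 469 miRNAs (0%) passed, 39 had an unadjusted p under 0.05, DESeq2 called 2 and limma voom 0.

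MK-801+CLO against VEH spans the full drug course and shares its libraries with the other comparisons. The log2 fold changes were -2.36 ± 0.60 for miR-1298, -2.04 ± 0.55 for miR-448-3p, -1.73 ± 0.50 for miR-448-5p, -1.57 ± 0.50 for miR-3552, -1.30 ± 0.43 for miR-764-5p and -1.03 ± 0.40 for miR-764-3p. All MK-801+CLO libraries lay below all VEH libraries for 4 members (miR-1298, miR-448-3p, miR-448-5p and miR-764-5p), against 11.5% of the tested miRNAs. Since the members were selected on this contrast, nothing is read from that share. The same 4 were apart without VEH replicate 3, against 14.9%. The estimates then lay closer together, at -1.14 ± 0.31, -1.08 ± 0.36, -1.16 ± 0.47, -1.08 ± 0.49, -0.78 ± 0.39 and -0.77 ± 0.43 in the same order. In edgeR 0 of 469 miRNAs (0%) passed, 70 had an unadjusted p under 0.05, DESeq2 called 11 and limma voom 0. MiR-448-5p and miR-3552 were among the 11, which is no support for them, since this contrast was used to select the members.

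**Figure D4:**
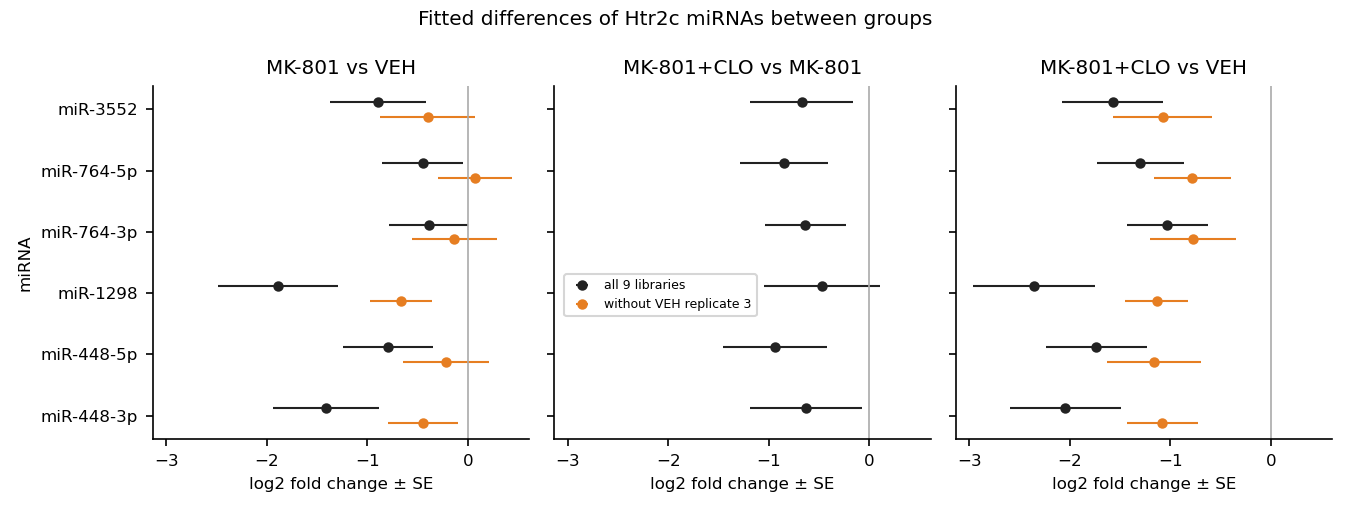
Fitted log2 fold change ± SE from edgeR for the 6 miRNAs in each comparison, with all 9 libraries (black) and without VEH replicate 3 (orange, for the comparisons with VEH). Without that library miR-1298 moves from -1.89 to -0.66 in MK-801 against VEH and from -2.36 to -1.14 in MK-801+CLO against VEH, and miR-764-5p moves to 0.07 in MK-801 against VEH.

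MiR-153-3p, the neuronal miRNA that shares bases 2 to 7 with miR-448-3p, was far more abundant, with a mean of 759 CPM against 22.6 CPM. Its log2 fold changes were 0.25 ± 0.18, 0.04 ± 0.18 and 0.29 ± 0.18 in the 3 comparisons in the order given, opposite in sign to those of miR-448-3p, and none passed the test.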

How the data were processed

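Mature miRNAs were counted in 9 hippocampus libraries, 3 per group by their titles. The authors deposited 1 table with whole-number counts and values headed TPM, which equal CPM of those counts to within 0.000473% and hold no length term. The submitters' processing notes name the tools cutadapt 1.14, Bowtie and DESeq and the assembly Rnor_6.0, but not their roles. For reads matching more than 1 miRNA the counting rule was not given in the sources used here. Read in, the table had 21 blank lines and 1 name split over lines, which was rejoined.

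EdgeR 4.0.16 (R 4.3.3) was run on the counts of all 9 libraries, with filterByExpr (469 miRNAs kept, all 6 members among them), TMM factors, glmQLFit and glmQLFTest, 1 mean per group, and Benjamini-Hochberg adjustment over all tested miRNAs at 0.05. SE is the absolute log2 fold change over the square root of F. The code was tested on simulated counts. Alternatives were DESeq2 1.42.0, limma voom 3.58.1, other scaling factors and filters, the replicate number as a block, the compared libraries alone, and each library left out. Wilson intervals are from SciPy 1.17.1. The level that 0 counts still allow, set at 3 counts, lay between 0.164 and 0.281 CPM by library. None of the 9 pairs of libraries within a group agreed within sampling noise by a chi-square comparison, so none were merged.

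The members, marker lists and named miRNAs were chosen with earlier results of these data known. The rule named all 6 members, other miRNAs of the host gene, the 5 miRNAs most like miR-1298, miRNAs sharing a seed and markers of choroid plexus, ciliated cells, epithelium, neurons, oligodendrocytes, blood, vessels and hindbrain. Mature and hairpin sequences are from the deposited table and from RefSeq (GRCr8).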

Additional observations from a re-analysis of the deposited data

How the results depend on the processing

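The number of miRNAs past the adjusted threshold, 0 in each comparison in edgeR, was 1, 2 and 11 in DESeq2 for MK-801 against VEH, MK-801+CLO against MK-801 and MK-801+CLO against VEH. With 1 library left out it ran from 0 to 1, 0 to 2 and 0 to 7 in that order, with 1 without MK-801 replicate 2 and 2 and 7 without MK-801+CLO replicate 2. It was 0 with limma voom, each other scaling, each other filter and only the libraries compared. The 11 of 469 miRNAs that DESeq2 called in MK-801+CLO against VEH included miR-448-5p and miR-3552, each at a DESeq2 adjusted p of 0.049. Their edgeR adjusted p were 0.18 and 0.205. The calls are no support for them, since that contrast was used to select the members. Of 261 values of the members under the alternatives, all refits of the same libraries, 260 kept their direction. The exception was miR-764-5p in MK-801 against VEH, which ran from -0.825 to 0.0682 with 1 library left out and was above 0 without VEH replicate 3. The cause was not tested. Given how the members were selected, nothing is read from the direction that the other values share. Upper-quartile factors moved the median of all miRNAs in MK-801+CLO against MK-801 to -0.116, and miR-1298 to -0.56. The number in the titles did not pair the libraries: same-numbered deviations correlated at -0.345 to 0.129. With the replicate number as a block 0 miRNAs passed in each comparison, and 25, 35 and 64 had an unadjusted p under 0.05. The minimum of 10 CPM leaves out miR-448-5p, miR-764-5p and miR-3552. Leaving out VEH replicate 3 in counts of libraries that do not overlap was chosen after seeing the data. Depth limits miR-448-5p (10 to 116 counts) and miR-1912-3p (1 to 32 counts).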

Other observations

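Of the tested miRNAs, 1 had a higher ratio of VEH replicate 3 to the median of the other libraries than miR-1298. It was miR-489-3p, whose gene lies within that of the calcitonin receptor (Calcr) and which was named after its values were seen. It had 5, 10 and 61 counts in VEH, 7, 158 and 5 in MK-801, and 3, 1 and 3 in MK-801+CLO. Its highest library was thus MK-801 replicate 2, at 9.28 CPM against 3.34 CPM in VEH replicate 3. These 2 libraries were also among the 3 highest for all 6 members.

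The miRNAs most like miR-764-3p across the 9 libraries, a list made after its values were seen, were not those most like miR-1298. They were miR-433-3p (r 0.92, rho 0.90), miR-341 (r 0.91, rho 0.88), miR-485-3p (r 0.90, rho 0.85), miR-770-5p (r 0.90, rho 0.85) and miR-31a-5p (r 0.88, rho 0.88). Without VEH replicate 3 these r were 0.89, 0.88, 0.88, 0.90 and 0.93. MiR-433-3p stood at 319, 380 and 403 CPM in the VEH libraries, 323, 368 and 304 CPM in the MK-801 libraries, and 350, 294 and 310 CPM in the MK-801+CLO libraries, a far narrower range than that of miR-764-3p.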
